A study of Mus musculus with 6 samples.

Results

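The calcium/calmodulin-dependent protein kinase (CaMK) genes are 10 of the 31763 genes in the deposited table, matched by gene name. They are Camk2a, Camk2b, Camk2d and Camk2g, which encode the subunits of CaMKII, Camkk1 and Camkk2, which encode the upstream kinases, and Camk4, Camk1, Camk1d and Camk1g, which encode kinases downstream of them. All 10 were in the table, and all 10 were among the 18970 genes tested, for which a minimum of 10 counts was required in 3 or more of the 6 libraries. Each had between 731 and 68106 counts in every library.

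When calcium enters a neuron it binds calmodulin, and the complex opens the autoinhibited kinases of this family. CaMKII is a multi-subunit enzyme abundant at excitatory synapses, where it phosphorylates receptors and scaffold proteins during long-term potentiation, and it keeps part of its activity after calcium falls by phosphorylating itself. CaMKK1 and CaMKK2 activate CaMKI and the nuclear kinase CaMKIV by phosphorylating a threonine in their activation loop, and CaMKIV phosphorylates the transcription factor CREB.

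The samples were medial prefrontal cortex (mPFC) of male C57BL/6J mice, 8 to 10 weeks old, in a conditioned place preference (CPP) experiment, in which an animal learns to prefer the chamber paired with a drug. The saline group received saline (10 ml/kg, i.p.) and the morphine group morphine (10 mg/kg, i.p.) over 5 days of training. After a week in the home cage without drug, tissue was taken on day 13, following the retrieval test that both groups underwent. Each group had 3 samples. No source used here says whether a sample was 1 animal or a pool, so p-values speak of the spread among these samples, part of which may be technical.

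The kinases of each class are close relatives, so sequences of some of them are shown first, at the residue each class is regulated by. The stretches below are mouse coding sequence of GRCm38 (GENCODE M21), 51 bases each, inside 1 exon, with the regulatory threonine codon in capitals. Residues are numbered on the longest complete coding transcript of each gene, so the numbers can differ from those of another isoform. The first 3 surround the autophosphorylation site of CaMKII, and the others surround the activation-loop threonine on which CaMKK acts in CaMKI. Stretches of Camk2a and Camk4 are not shown.
Camk2b, residue 287, chr11:5988973-5989023, minus strand: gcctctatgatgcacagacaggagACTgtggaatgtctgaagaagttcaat
Camk2d, residue 287, chr3:126797717-126797767, plus strand: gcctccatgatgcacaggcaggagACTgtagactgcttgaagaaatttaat
Camk2g, residue 285, chr14:20760415-20760465, minus strand: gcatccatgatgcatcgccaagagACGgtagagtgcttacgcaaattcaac
Camk1, residue 177, chr6:113338281-113338331, minus strand: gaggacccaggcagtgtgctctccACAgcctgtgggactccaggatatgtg
Camk1d, residue 180, chr2:5354670-5354720, minus strand: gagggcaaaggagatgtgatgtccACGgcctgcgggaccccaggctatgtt
Camk1g, residue 178, chr1:193353993-193354043, minus strand: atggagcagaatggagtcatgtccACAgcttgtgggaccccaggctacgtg

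Around the CaMKII threonine, Camk2b and Camk2d differed at 8 of the 51 bases but at 1 residue, Camk2b and Camk2g at 17 bases but again at 1 residue, and Camk2d and Camk2g at 13 bases and 2 residues. The CaMKI stretches differed at 13 to 17 bases and at 4 to 6 residues. Over the whole translated coding sequence, the CaMKII subunits were 84.2% to 86.7% identical in pairs, Camk1 and Camk1d 73.5%, and Camkk1 and Camkk2 63.8%. The mRNAs could nevertheless be told apart: the longest exact run shared by any 2 of the 10 genes was 43 bases, between Camk2b and Camk1d. No 150-base window of 9 of the genes occurred in another gene's transcripts, while Camk1 shared 21 of its 6546 windows (0.32%) with the overlapping gene Ogg1.

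Libraries held 17984153 to 23529592 counts. The excitatory neuron markers Slc17a7, Neurod6, Nrgn and Tbr1, which are typical of cortex, were present in every library, with a summed level of 1691 to 2086 CPM (counts scaled to a common library size after TMM normalization). Saline sample 1 stood apart before any kinase was considered. Its summed level of 6 olfactory bulb markers was 551 CPM, against 145 to 159 CPM in the other 5 libraries, and all 6 were more than 2 times the next library. Another 3 markers of that list were below the filter, namely Tbx21, Lhx1 and Eomes, the last with 462 counts in saline sample 1 and 0 to 7 elsewhere. Saline sample 1 also had the highest inhibitory neuron sum (944 CPM against 515 to 577, with Gad1, Gad2 and Slc32a1 the highest there, Pvalb and Vip the lowest and Sst within range) and the lowest level of each of the 4 excitatory markers. Its astrocyte sum was 991 CPM against 785 to 864 and its striatal sum 82.6 CPM against 95.1 to 112, while its oligodendrocyte, microglial and endothelial sums lay within the range of the others. Values without it are therefore given for each kinase, and for other genes where leaving it out moved a value by more than 1.5 times.

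Compared per length, Camk2a was by far the most abundant of the family. Its FPKM (fragments per kilobase of transcript, scaled to library size) averaged 361 ± 32.2 (SD, n = 6 libraries), above 99.9% of tested genes. Camk2b followed with 72.4 ± 4.10 FPKM. Ranges of these genes did not overlap each other or that of any other member.

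A middle set of 5 genes followed. Camk4 averaged 46.1 ± 5.21 FPKM, Camk2g 44.0 ± 3.07, Camkk2 37.6 ± 3.21, Camkk1 36.0 ± 4.71 and Camk1d 28.1 ± 1.63, each over 6 libraries. Every neighbouring pair in this set had overlapping ranges, so the order within it was not resolved by range, although Camk4 exceeded Camk2g in 5 of 6 libraries and Camkk1 exceeded Camk1d in 6 of 6. The lowest genes were Camk1g at 15.9 ± 1.96 FPKM, Camk1 at 7.54 ± 0.510 and Camk2d at 6.08 ± 0.907. Camk1 and Camk2d overlapped in FPKM range but kept their order in 6 of 6 libraries. The place of Camk2d depended on the length assigned to each gene. In raw counts Camk2d had 2348 to 4056 per library, Camk1g 736 to 1083 and Camk1 731 to 1116.

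**Figure D1:**
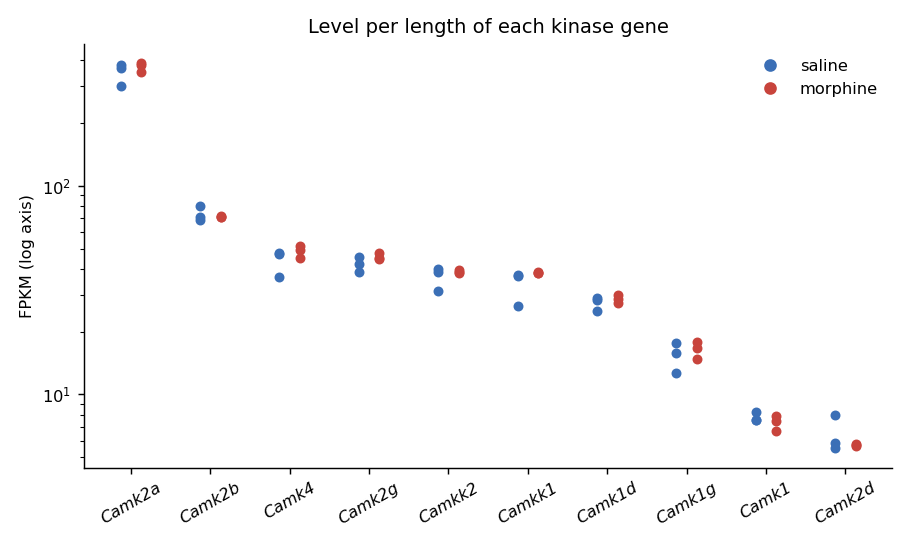
FPKM of each kinase gene on a log axis, 1 point per library, saline in blue and morphine in red, ordered by the mean over 6 libraries. Camk2a stands alone near 361 FPKM, and the saline and morphine points overlap for every gene except Camkk1.

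No CaMK gene differed between morphine and saline in the test across all genes. By edgeR's quasi-likelihood test, 0 of 10 passed an adjusted p of 0.05, as did 0% of all tested genes, where the smallest adjusted p was 0.249. Before adjustment, 0 of the 10 passed a p of 0.05 in either direction, while 2.77% of all genes passed it as higher and 4.96% as lower. DESeq2 gave 1 member before adjustment, Camkk1 (unadjusted p = 0.047), beside 5.13% of all genes, and 0 after it, where 16 genes of the whole table passed. The log2 fold change was positive for 7 of 10 members against 47.5% of all genes, and its median was 0.11 against -0.0093 over all genes.

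**Figure D2:**
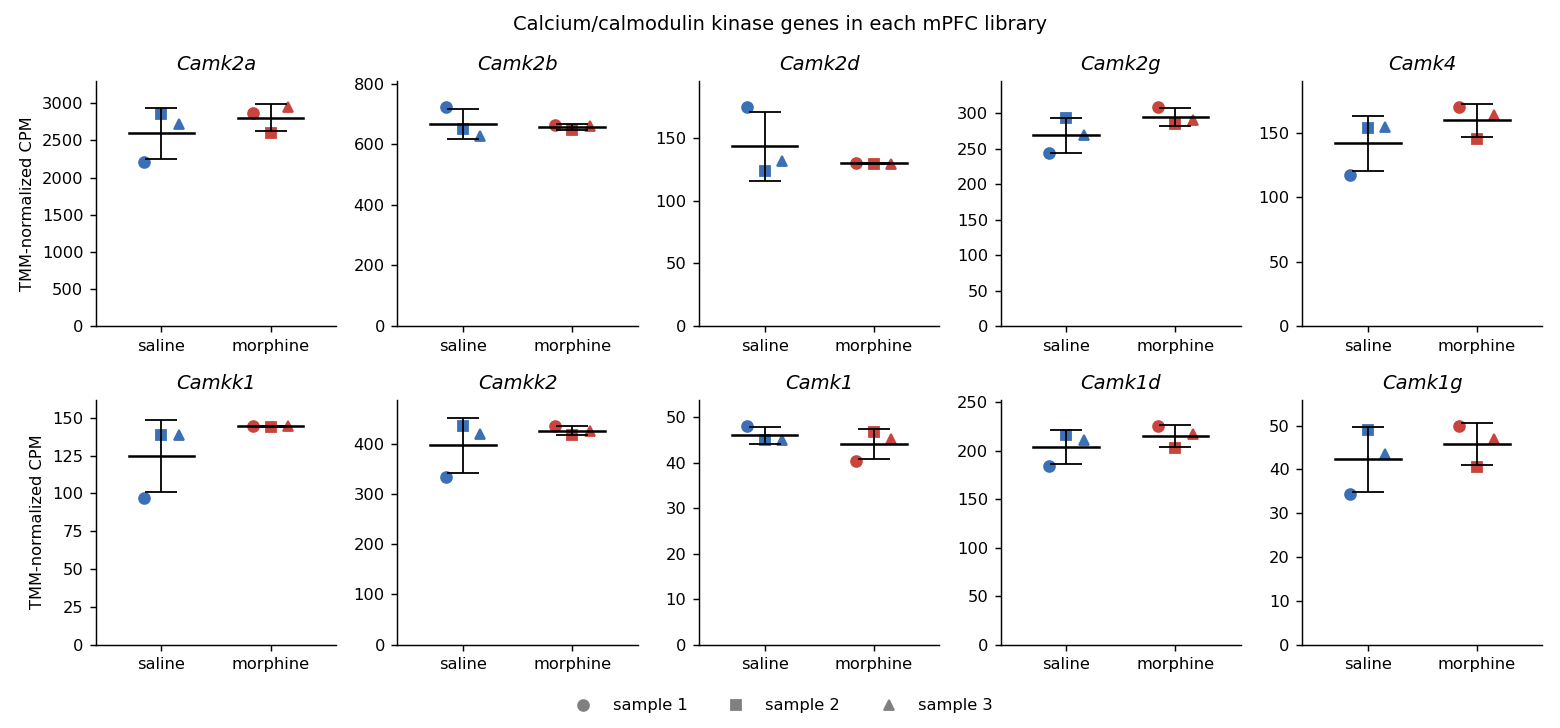
Normalized CPM (linear axis from 0) of the 10 kinase genes in each library, with saline samples in blue and morphine samples in red, marker shape for the sample number, horizontal line for the mean and bar for the SD (n = 3). The blue circle, saline sample 1, is the lowest of the 6 points in 7 panels and the highest in 3, those of Camk2b, Camk2d and Camk1.

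Camk2a (chr18:60925618-60988152, plus strand) encodes CaMKIIα, the main forebrain subunit. Its normalized level was 2206, 2854 and 2728 CPM in saline samples 1 to 3 and 2868, 2605 and 2948 CPM in morphine samples 1 to 3. The low value of saline sample 1 set the group difference, and the other 5 libraries overlapped. The log2 fold change was 0.11 (SE 0.094, 95% interval -0.097 to 0.32, edgeR adjusted p = 0.764). Without saline sample 1 it was 0.0096, with an interval of -0.11 to 0.13.

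Camk2b (chr11:5969644-6066362, minus strand) encodes CaMKIIβ, the subunit that binds actin in spines. Saline samples 1 to 3 measured 722, 649 and 628 CPM, and morphine samples 1 to 3 measured 664, 645 and 659 CPM. Here saline sample 1 was the highest library. Its log2 fold change was -0.021 (SE 0.060, interval -0.16 to 0.11, edgeR adjusted p = 0.935), and 0.042 without saline sample 1 (interval -0.061 to 0.14).

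Camk2d (chr3:126596302-126846326, plus strand) encodes CaMKIIδ, best known from heart and also made in brain. Saline samples had 175, 124 and 132 CPM and morphine samples 131, 129.6 and 129.8 CPM. The morphine samples were nearly identical (SD 0.627 CPM), and the saline mean lay above them through saline sample 1 alone. A log2 fold change of -0.14 (SE 0.11, interval -0.38 to 0.093, edgeR adjusted p = 0.732) became 0.024 without that sample (interval -0.084 to 0.13).

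Camk2g (chr14:20734875-20794088, minus strand) encodes CaMKIIγ, which carries calmodulin towards the nucleus. Levels were 244, 294 and 270.2 CPM in saline and 309, 285 and 291 CPM in morphine samples. Saline sample 2 lay within the morphine range, so the groups overlapped. The log2 fold change of 0.13 (SE 0.069, interval -0.021 to 0.29) had the lowest unadjusted p of the 10, 0.0841 (edgeR adjusted p = 0.672). Without saline sample 1 it was 0.066 (interval -0.045 to 0.18).

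Camkk1 (chr11:73019008-73042073, plus strand) encodes CaMKKα and was the single member whose groups did not overlap. Saline samples had 97.0, 138.6 and 139 CPM and morphine samples 145, 144 and 145 CPM. All morphine samples were above all saline samples, a pattern held by 5.98% of all genes, with 0 members in the opposite pattern, held by 7.32%. Saline samples 2 and 3 were close to the morphine samples, whereas saline sample 1 was far lower. The difference was 0.21 on the log2 scale (SE 0.11, interval -0.042 to 0.46, edgeR adjusted p = 0.673), and 0.060 without saline sample 1 (interval -0.045 to 0.16). Groups that do not overlap cannot come to overlap when a library is left out, so that fit adds nothing on this point. The count of 1 member with morphine above saline became 2 without saline sample 2 and 4 without morphine sample 2. Non-overlap is easier to reach with 2 samples in a group, and the share of all genes was not computed for these splits. These counts therefore cannot be read as a result about the members.

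Camkk2 (chr5:122731170-122779409, minus strand) encodes CaMKKβ, which also activates AMPK. Saline samples had 334, 436 and 421 CPM and morphine samples 436, 417 and 427 CPM. Apart from saline sample 1 the libraries interleaved. Its log2 fold change was 0.10 (SE 0.087, interval -0.090 to 0.30, edgeR adjusted p = 0.766), and -0.0051 without saline sample 1 (interval -0.11 to 0.098). The FPKM ratio of Camkk2 to Camkk1, looked at after the values were seen, was 1.18, 1.07 and 1.03 in saline and 1.03, 0.991 and 1.01 in morphine samples. The two-sided exact permutation test of that ratio gave p = 0.1, and p = 0.2 without saline sample 1. With 3 against 3 this test cannot give a p below 0.1. The ratio was picked with the values known and contains Camkk1, whose groups did not overlap. These p-values therefore cannot be read as evidence of a difference. Other shares, sums and ratios gave p = 0.3 to 0.8 by the same exact permutation test over 6 libraries.

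Camk4 (chr18:32934931-33191228, plus strand) encodes CaMKIV, the nuclear CREB kinase. The saline samples measured 117, 154 and 155 CPM and the morphine samples 169.9, 145 and 164 CPM. Morphine sample 2 lay below saline samples 2 and 3. A log2 fold change of 0.17 (SE 0.10, interval -0.055 to 0.40, edgeR adjusted p = 0.691) became 0.052 without saline sample 1 (interval -0.071 to 0.17).

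The CaMKI genes encode monomeric kinases of cytosol and neurites. Camk1 (chr6:113334124-113343984, minus strand) measured 48.1, 45.0 and 44.9 CPM in the saline samples and 40.4, 46.7 and 45.3 CPM in the morphine samples. Saline sample 1 was the highest library, but morphine sample 1, the lowest, lay farther from the rest. The groups overlapped, with a log2 fold change of -0.061 (SE 0.071, interval -0.22 to 0.097, edgeR adjusted p = 0.832), and -0.025 without saline sample 1.

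Camk1d (chr2:5293457-5714515, minus strand) measured 184, 216 and 211 CPM in the saline samples and 226, 203 and 217 CPM in the morphine samples. Camk1g (chr1:193346346-193370298, minus strand), whose product is lipid-anchored, measured 34.3, 48.9 and 43.6 CPM in the saline samples and 49.9, 40.6 and 46.9 CPM in the morphine samples. Both had their groups overlapping with saline sample 1 at the bottom. The log2 fold changes were 0.080 (SE 0.069, interval -0.073 to 0.23, edgeR adjusted p = 0.771) for Camk1d and 0.12 (SE 0.12, interval -0.15 to 0.39, edgeR adjusted p = 0.808) for Camk1g. Leaving out saline sample 1 gave 0.013 and -0.013.

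**Figure D3:**
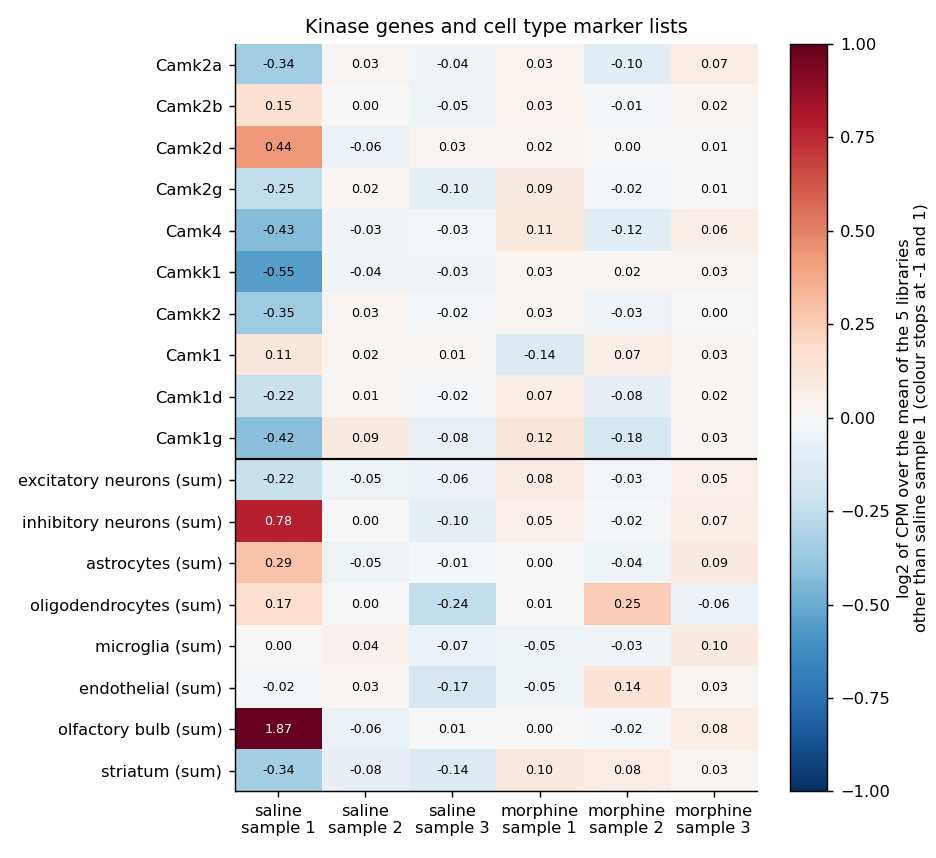
Log2 of each library's CPM over the mean of the 5 libraries other than saline sample 1, for the 10 kinase genes (top) and for summed cell type marker lists (bottom), colour limited to -1 and 1. The first column holds the extreme value of nearly every kinase row, from -0.55 for Camkk1 to 0.44 for Camk2d, beside 1.87 for the olfactory bulb list.

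Across the family, saline sample 1 was the lowest library for 7 members and the highest for the other 3, Camk2b, Camk2d and Camk1. Over all genes it was the lowest for 22.1% and the highest for 24.9%. Its level relative to the mean of the other 5 libraries ranged from 0.683 for Camkk1 to 1.35 for Camk2d, with Camk4 at 0.742, Camk1g at 0.747 and Camk2a at 0.788. The members together took 0.424% of its counts and 0.470% to 0.498% in the other libraries. These shifts stood beside the higher olfactory bulb and inhibitory neuron sums and the lower excitatory sum of that library, and the part of these in the kinase levels was not tested. In bulk tissue, fewer cells of a type and less RNA per cell cannot be told apart.

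Leaving out saline sample 1 narrowed the comparison. The largest absolute log2 fold change among the members was then 0.066, and their median was 0.019 against 0.0045 over all genes. The 95% intervals of all 10 lay between 0.883-fold and 1.13-fold. Again 0 of 10 passed an adjusted p of 0.05 (edgeR, smallest 0.689) and 0 an unadjusted p of 0.05, while 1.02% and 11.6% of all genes did. The signs of Camk2b, Camk2d, Camkk2 and Camk1g changed. Without saline sample 2, in contrast, 3 members passed an unadjusted p of 0.05 (Camkk1 and Camk2g higher, Camk2d lower), beside 8.61% of all genes. Without saline sample 3, Camkk1 did, beside 7.13% of all genes, and 0 passed after adjustment in either fit.

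**Figure D4:**
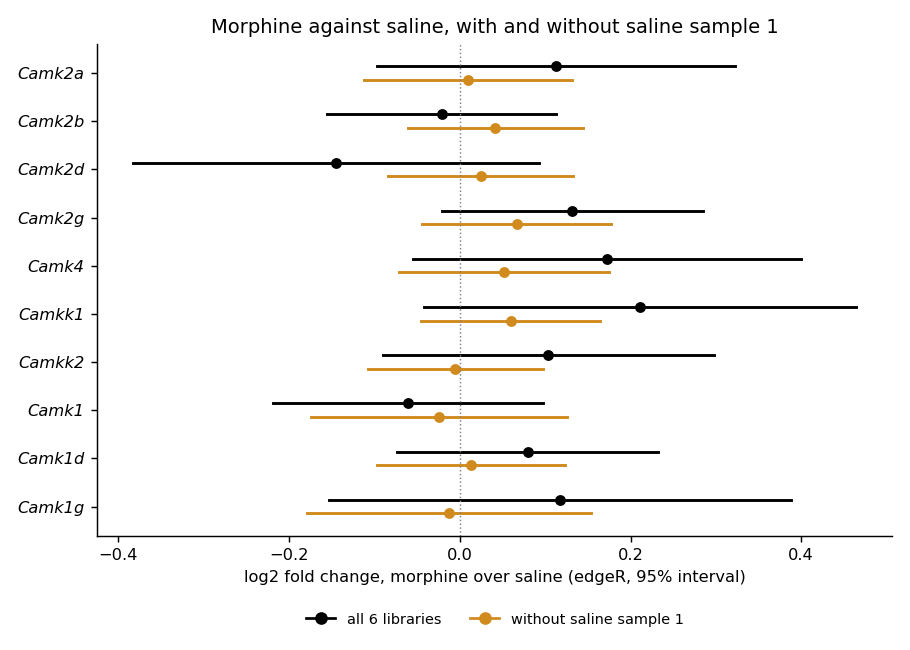
Log2 fold change of morphine over saline with its 95% interval (edgeR) for each kinase gene, over all 6 libraries in black and without saline sample 1 in orange. All intervals cross 0, and the orange ones are shorter and lie within 0.883-fold to 1.13-fold.

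The makeup of CaMKII at the RNA level was then compared, since holoenzymes mix subunits. Camk2a made up 70.3%, 75.7% and 75.8% of the summed CaMKII FPKM in the saline samples and 75.2%, 74.2% and 76.2% in the morphine samples. The group means were 73.9% ± 3.16 and 75.2% ± 0.963 (SD, n = 3 each), a difference within the replicate spread (two-sided exact permutation test, p = 0.8, with 0.1 the smallest p possible for 3 against 3). Without saline sample 1 the difference of 1.27 percentage points turned to -0.553. With counts in place of FPKM, the Camk2a share was 65.9%, 72.8% and 72.6% in the saline samples and 72.2%, 71.1% and 73.2% in the morphine samples.

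Saline sample 1 carried relatively more Camk2b and Camk2d. Camk2b was 18.8% of its CaMKII FPKM and 13.9% to 15.1% elsewhere, and Camk2d was 1.85% and 1.09% to 1.23% elsewhere. Camk2g was near constant, between 8.75% and 9.47% in the 6 libraries. The ratio of Camk2a to Camk2b was 3.74 in that library and 4.93 to 5.47 in the others.

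**Figure D5:**
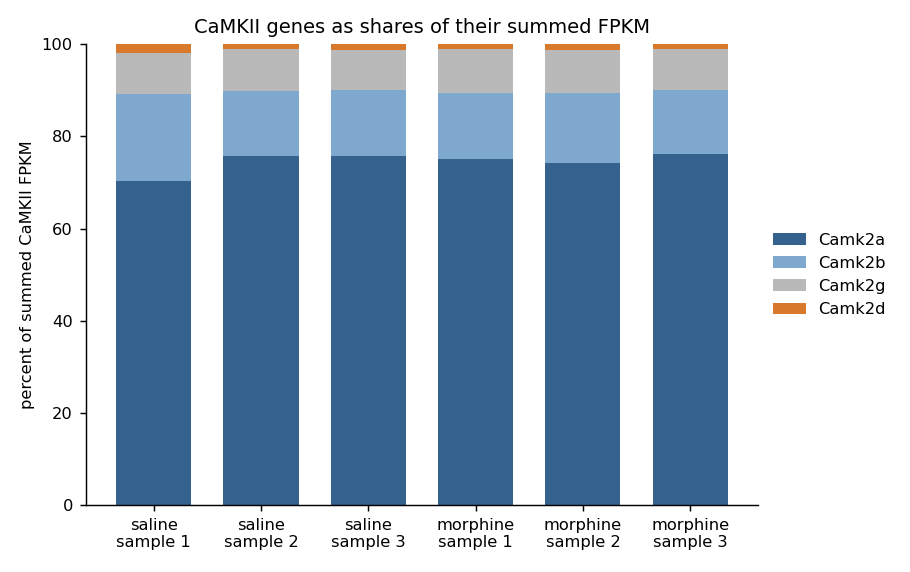
Stacked bars of the percent of summed CaMKII FPKM from each of the 4 subunit genes, 1 bar per library, on an axis from 0 to 100. Camk2a takes 74.2% to 76.2% in 5 libraries and 70.3% in saline sample 1, where the Camk2b share is 18.8%.

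Camk2n1 and Camk2n2 encode the endogenous CaMKII inhibitor proteins. Their summed FPKM was 0.865, 0.970 and 1.01 times that of CaMKII in saline and 0.983, 0.965 and 0.982 times in morphine samples. Inhibitor and kinase RNA were thus about equally abundant on this per-length scale only. By counts the ratio was 0.457, 0.533 and 0.554 in saline and 0.539, 0.527 and 0.539 in morphine samples. The FPKM ratio means of 0.947 ± 0.0733 and 0.977 ± 0.0101 (SD, n = 3 each) differed by less than the saline spread (exact permutation test, p = 0.8, two-sided). Without saline sample 1 the difference of 0.0296 turned to -0.0113. Camk2n1 was the more abundant of the pair, with 422 ± 69.1 FPKM in saline and 457 ± 22.5 FPKM in morphine samples, beside 26.1 ± 2.35 and 27.7 ± 1.24 FPKM for Camk2n2.

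A list of 60 other genes of calmodulin signalling was examined next, all 60 of them tested. After adjustment 0 passed in edgeR. Before adjustment, 4 (6.67%) passed a p of 0.05 as higher and 1 (1.67%) as lower, beside 2.77% and 4.96% of all genes, and DESeq2 gave 5 and 0. The median over the list was 0.026 on the log2 scale, and 0.027 without saline sample 1, beside -0.0093 and 0.0045 over all genes. The 4 higher genes became 2 without saline sample 1, morphine sample 1 or morphine sample 3 and 9 without saline sample 2. The 1 lower gene became 0 without morphine sample 1, 2 without saline sample 3 or morphine sample 2 and 5 without saline sample 2. With a library left out, 4% to 11.6% of all genes passed in either direction, and 8.61% without saline sample 2.

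The calcineurin group, the calmodulin-dependent phosphatase that opposes the kinases, held 3 of the 4 higher genes among its 8, beside 2.77% of all genes. Without saline sample 1 the count of 3 became 2. Rcan1, a calcineurin inhibitor whose own promoter answers to calcineurin, measured 41.5, 47.0 and 45.8 CPM in the saline samples and 50.5, 52.2 and 53.5 CPM in the morphine samples. The groups did not overlap, and the log2 fold change was 0.22 (SE 0.066, unadjusted p = 0.00743, edgeR adjusted p = 0.590). Its relative Rcan2 measured 126, 124 and 132 CPM in the saline samples and 142, 139 and 141 CPM in the morphine samples, again without overlap. The value for Rcan2 was 0.15 (SE 0.048, unadjusted p = 0.0129, edgeR adjusted p = 0.613).

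Both Rcan genes passed an unadjusted p of 0.05 without saline sample 1 as well. In that fit 11.6% of all genes and 3 of the 60 pathway genes passed it. The log2 fold changes were then 0.17 for Rcan1 (interval 0.034 to 0.30, unadjusted p = 0.0167, edgeR adjusted p = 0.276) and 0.14 for Rcan2 (interval 0.028 to 0.25, unadjusted p = 0.0162, edgeR adjusted p = 0.273). Ppp3ca, the main catalytic subunit in brain, had a value of 0.18 (unadjusted p = 0.0479 by edgeR), and 0.099 without saline sample 1 (unadjusted p = 0.0925). The group's median was 0.13, and 0.057 without saline sample 1. Some cell type markers were also higher in morphine samples. The excitatory sum was 1691, 1901 and 1893 CPM in saline and 2086, 1927 and 2034 CPM in morphine samples, without overlap, and Neurod6 had a log2 fold change of 0.24 (edgeR unadjusted p = 0.00477), and 0.18 without saline sample 1 (unadjusted p = 0.00772). The oligodendrocyte sums overlapped. That list had a median of 0.13, and 0.22 without saline sample 1, with Mbp then at 0.22 (edgeR unadjusted p = 0.00771). The striatal sum was 82.6, 98.9 and 95.1 CPM in saline and 112, 110 and 106 CPM in morphine samples, without overlap. Its list had a median of 0.090, and 0.17 without saline sample 1. Over all libraries 1 of its 6 genes, Ppp1r1b, passed an unadjusted p of 0.05. Ppp1r1b had 0.37 (edgeR unadjusted p = 0.00505), and 0.25 without saline sample 1 (unadjusted p = 0.00215). Of the astrocyte markers, Aldh1l1 had 0.17 (edgeR unadjusted p = 0.0484), and 0.19 without saline sample 1 (unadjusted p = 0.0222). All other markers of that list had negative values, and its median was -0.043, or 0.038 without saline sample 1. The part of these marker differences in the calcineurin values was not tested.

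Among calmodulin and the proteins that buffer it, 0 of 5 genes passed an unadjusted p of 0.05 in edgeR. The log2 fold changes of Calm2 and Calm3, which encode the identical calmodulin protein, were 0.046 and 0.088 (edgeR unadjusted p = 0.409 and 0.185), and 0.031 and 0.041 without saline sample 1. Nrgn, neurogranin, which holds calmodulin at rest and was also 1 of the excitatory markers, had 0.26 (edgeR unadjusted p = 0.0654), and 0.12 without saline sample 1, the lowest library at 302 CPM against 400 to 501. Among inhibitors and regulators 0 of 6 passed an unadjusted p of 0.05. Camk2n1 had 0.13 and Camk2n2 0.11, or -0.0046 and 0.16 without saline sample 1, and the calmodulin methyltransferase gene Camkmt and the CaMK phosphatase gene Ppm1f had -0.25 and 0.095.

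Of 13 related kinases, 1 passed an unadjusted p of 0.05. Dclk3, a doublecortin-like kinase, averaged 39.1 ± 3.12 CPM in the saline samples and 44.6 ± 3.50 CPM in the morphine samples (SD, n = 3 each, log2 fold change 0.19, unadjusted p = 0.0415, edgeR adjusted p = 0.630). When saline sample 1 was left out it had 0.14 and no longer passed (edgeR unadjusted p = 0.0773). Dclk2 had -0.29 (unadjusted p = 0.0596 by edgeR), with 129.9 CPM in saline sample 1 and 79.1 to 88.2 CPM elsewhere, and -0.061 without that library. Pskh1 had -0.24 (edgeR unadjusted p = 0.0754).

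Among 12 nuclear targets, the lower gene was Crtc2, a CREB coactivator. Its levels were 14.54, 16.03 and 16.3 CPM in saline samples 1 to 3 and 12.6, 14.51 and 12.5 CPM in morphine samples 1 to 3, so that saline sample 1 and morphine sample 2 all but met. Crtc2 had a log2 fold change of -0.24 (SE 0.10, unadjusted p = 0.0407, edgeR adjusted p = 0.628), and -0.29 without saline sample 1 (unadjusted p = 0.0139). Atf1, of the CREB family, had -0.20 and Mef2d, a factor that CaMK signalling releases from repression, 0.090.

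Synaptic targets and anchors (10 genes) and AMPK subunits (6 genes) had 0 at an unadjusted p under 0.05 in edgeR. Itpka, an actin-bundling kinase of spines that calmodulin activates, had a log2 fold change of 0.25, and 0.10 without saline sample 1. Tiam1, a Rac exchange factor that CaMKII can bind, had -0.27 and 0.0089, and the anchor gene Lrrc7, densin, had -0.079 and -0.10. Prkag2, Prkaa2 and Prkag1 of AMPK, the other substrate of CaMKKβ, had 0.13, 0.095 and -0.070, and 0.037, 0.0094 and -0.062 without saline sample 1.

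Groups did not overlap for 7 of the 60 genes, with morphine above saline for 4 (6.67%, beside 5.98% of all genes) and below for 3 (5%, beside 7.32%). Besides those described these were Camkv and Dapk3, above, and Pskh1 and Lrrc7, below, with Camkv and Dapk3 named after their values were seen. Camkv, a kinase-like synaptic protein without catalytic activity, had a narrow range of 346 to 365 CPM over the 6 libraries.

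Some members lie over other annotated genes, which matters for what their reads count. The annotation placed 15 genes over the 10 loci, of which 9 were tested and 0 passed an unadjusted p of 0.05 in edgeR. Of these, 7 lay on the same strand inside introns of Camk2d, as unspliced models with no coding sequence. Reads of unspliced Camk2d RNA and of these models cannot be told apart in the table.

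The 7 models, all of 1 locus, had negative log2 fold changes, with a median of -0.32, where 47.5% of all genes had a positive value. Gm43011 had 6.49 CPM on average and a value of -0.28, Gm43010 -0.25, Gm43009 -0.50 (unadjusted p = 0.0636 by edgeR) and Gm42515 -0.59 (unadjusted p = 0.0571). Without saline sample 1 they had -0.10, -0.15, -0.52 and -0.34, so that the value of Gm43009 did not rest on that library. The values of the 7 models then ran from -0.52 up to -0.025. Camk2d itself was then at 0.024. Ogg1, a DNA repair gene that overlaps an exon of Camk1 on the opposite strand, had counts equal to 10.8% of those of Camk1. Its log2 fold change was -0.0087, and -0.0029 without saline sample 1.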

How the data were processed

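RNA of 3 saline and 3 morphine mPFC samples was sequenced from rRNA-depleted, directional libraries. The authors deposited 1 table of raw counts and FPKM values per gene and library. HISAT2 2.1.0, HTSeq 0.11.2, StringTie 1.3.3 and cutadapt 1.9.3 are listed in the submitters' processing notes, with mm10 as build. For the counting, the use of strand is not given in these sources. Over 13342 genes the deposited FPKM equalled the counts divided by a gene length and a library factor.

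Genes reaching 10 counts in 3 or more of 6 libraries were fitted with the edgeR 4.0.16 quasi-likelihood test (TMM factors, group as the single term, R 4.3.3) and p-values were Benjamini-Hochberg adjusted over all 18970 genes. CPM values are TMM-normalized. FPKM was used to compare levels between genes. The script was tested on simulated data. Library totals of 17984153 to 23529592 left each member with 731 counts or more. Alternatives were DESeq2 1.42.0, limma 3.58.1 on log2 FPKM, other factors and filters, a replicate block, and each library left out. Same-numbered samples did not deviate together (r = 0.0153, 0.00133 and -0.0211). Counts of replicates differed by more than sampling noise (chi-square over degrees of freedom 2.91 to 14.7).

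The members and lists were chosen with earlier results of these data known. All 10 members were named, and in each group of the pathway list up to 3 genes of lowest p, with Calm2, Calm3, Camk2n1 and Camk2n2 named whatever their values. Of the fixed lists, 1 pathway gene and 1 cell type marker are not reported here and were left out of the list counts and sums. Of overlapping genes, up to 5 of the highest mean CPM were named. Coordinates and sequences are from GENCODE M21 (GRCm38, the same assembly as mm10).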

Additional observations from a re-analysis of the deposited data

How the results depend on the processing

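Of 130 refits of the 10 members' log2 fold changes (13 alternatives each), 126 kept the direction, 0 passed an adjusted p of 0.05, and the 4 that turned were all without saline sample 1. Leaving out 1 library at a time gave -0.058 to 0.042 for Camk2b, -0.24 to 0.024 for Camk2d, -0.0051 to 0.18 for Camkk2 and -0.013 to 0.24 for Camk1g, and likewise -0.0046 to 0.21 for Camk2n1 and -0.40 to 0.0089 for Tiam1. The members' median log2 fold change ran from 0.019 to 0.18, the Camk2a share difference from -0.553 to 2.19 percentage points and the inhibitor ratio difference from -0.0113 to 0.0593.

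Members higher at an unadjusted p under 0.05 numbered 1 with DESeq2, 3 with no filter on low counts and 0 to 2 with a library left out, and members lower 1 with no filter and 0 to 1 with a library left out. In either direction, 5.13% of all genes passed with DESeq2, 7.87% with no filter and 4% to 11.6% with a library left out. With limma, 6.89% passed on log2(FPKM + 0.1) and 7.12% on log2(FPKM + 1). Members with morphine samples above saline samples numbered 1 to 4, and below 0 to 1, with a library left out. For these splits, where non-overlap is easier to reach, the share of all genes was not computed. Pathway genes higher numbered 9 with no filter, 1 with limma on either FPKM scale and 2 to 9 with a library left out. Pathway genes lower numbered 0 with DESeq2, 5 with no filter, 2 with limma on log2(FPKM + 1) and 0 to 5 with a library left out. With no filter, 279 of 31763 genes were called after adjustment, against 0 of 18970, among them Nrgn (0.26) and Dclk2 (-0.29). DESeq2 called 16 and limma on log2(FPKM + 0.1) called 4. The cause of these changes was not tested.

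With the replicate number as a block, which the samples' deviations did not bear out as a pairing, the members' median log2 fold change was 0.12 and 0 members passed either threshold. In that fit 2 of the 60 pathway genes were higher at an unadjusted p under 0.05 (edgeR), beside 434 of 18970 genes tested. With 3 samples a group, or 2 in a group that lost a library, the width of the intervals limited what could be seen.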
